A study of Sus scrofa with 6 samples.

Results

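Collagens and the enzymes that process them were followed in porcine satellite cells (PSCs), which lie on muscle fibres and fuse into myotubes, between 24 h and 36 h of differentiation. The members were chosen by gene symbol. They are the collagen chains, whose symbols start with COL, a number and A, together with the prolyl and lysyl hydroxylases, the procollagen proteases with their enhancers, and the lysyl oxidases. Of 68 such symbols looked for, 50 were paired with a row of the table, 31 collagen chains and 19 processing enzymes, out of 28266 rows in all. COL1A1, COL24A1, COL4A1, COL18A1, COL6A4, COL6A6, COL9A2, COL9A3, COL19A1, COL20A1, COL7A1, COL8A2, COL26A1, COL25A1, CRTAP, SERPINH1, ADAMTS3 and LOXL2 were not analysed here.

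The PSCs came from limb muscle of 3-day-old male Yorkshire pigs, were cleared of fibroblasts by letting those attach first to uncoated dishes, and were moved to medium with horse serum to differentiate. All cells received the negative control (NC) siRNA, so this transfection is shared by both groups, NC24h and NC36h, each of 3 libraries numbered 4, 5 and 6. For the later time the sample labels name 48 h, while the title of the series and the study name 36 h, which is used here. Nothing in the labels says whether the libraries of a group came from separate animals or cultures, so p-values measure the spread between these libraries, which may be technical.

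Collagens are secreted proteins built of 3 chains wound into a triple helix. In the endoplasmic reticulum, prolyl 4-hydroxylases stabilise the helix, prolyl 3-hydroxylases modify a few prolines, and lysyl hydroxylases prepare the lysines for later bonds. Outside the cell, proteases of the BMP1 and ADAMTS families cut off the propeptides, the chains assemble, and lysyl oxidases cross-link them. In muscle, fibrillar types I, III and V form the interstitial matrix, type VI lies around the fibres, and type IV with type XV belongs to the basement membrane under which satellite cells reside.

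The deposited values were FPKM, fragments scaled by gene length and by library total, so that levels may be set side by side between genes per length of the gene model. Fragments of the 6 libraries were recovered from the steps of the FPKM values and summed over the genes above 0 in 3 or more libraries. These sums lay between 16250222 and 16774534 at 24 h and between 17873849 and 21723087 at 36 h. Changes are on the log2(FPKM + 1) scale, NC36h minus NC24h, from limma over the 14060 genes whose mean FPKM reached 1, with Benjamini-Hochberg adjustment over all of them. Such a change is smaller than the fold change for genes with a low FPKM. Over all genes tested, the median change was -0.157 as deposited and -0.003 once the libraries were scaled by median ratios.

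The cells carried the muscle identity that the labels give. The summed FPKM of 3 myotube markers (ACTA1, TNNT1 and TNNI1) was 4428, 3831 and 2282 in NC24h replicates 4, 5 and 6 and between 10067 and 11394 at 36 h, and all 3 genes rose. Of 6 satellite cell and myoblast markers in the table, 4 were called higher (MYF6, DES, MYMK and CDH15) and 0 lower, beside 16.5% and 34.4% of all genes. MYF5 and MYOD1 had lower means at 36 h and were not called (log2 change -0.48 and -0.29, limma adjusted p = 0.106 and 0.133). PAX7 and MYMX, and the myotube markers CKM, MYLPF and TTN, had no row paired with a symbol. The call of MYMK was lost without NC36h replicate 4, 5 or 6 (limma adjusted p from 0.0687 to 0.0797), and MYOD1 was called lower without NC24h replicate 4 (-0.43, adjusted p = 0.0223). NC24h replicate 6 had the lowest myotube sum and stood apart from the other NC24h libraries in many members too. Of the 12 members that fell with time, 11 had their highest value of all 6 libraries in NC24h replicate 6, and of the 12 that rose, 6 had their lowest value there.

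Of the 50 members, 35 passed the FPKM minimum. Among these, 24 had an adjusted p under 0.05 (68.6%), where 50.9% of all genes tested did. The members called higher at 36 h numbered 12 (34.3%), beside 16.5% of all genes, and those called lower also numbered 12 (34.3%), beside 34.4% of all genes. A call together with an absolute log2 change of 1 or more was found for 8 of 35, beside 8.36% of all genes. The median change of the tested members was 0.07. In 25 of them the values of the groups did not overlap, beside 63.6% of all genes. COL21A1 was the 1 tested member with a group mean under the minimum, so it passed through its higher group. The counts changed with the scaling, to 14 higher and 8 lower after median-ratio scaling, where 23.9% and 22.2% of all genes were called, and no member changed direction among the 24. In bulk libraries, fewer cells of a type and less RNA per cell cannot be told apart, which holds for each result here.

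**Figure D1:**
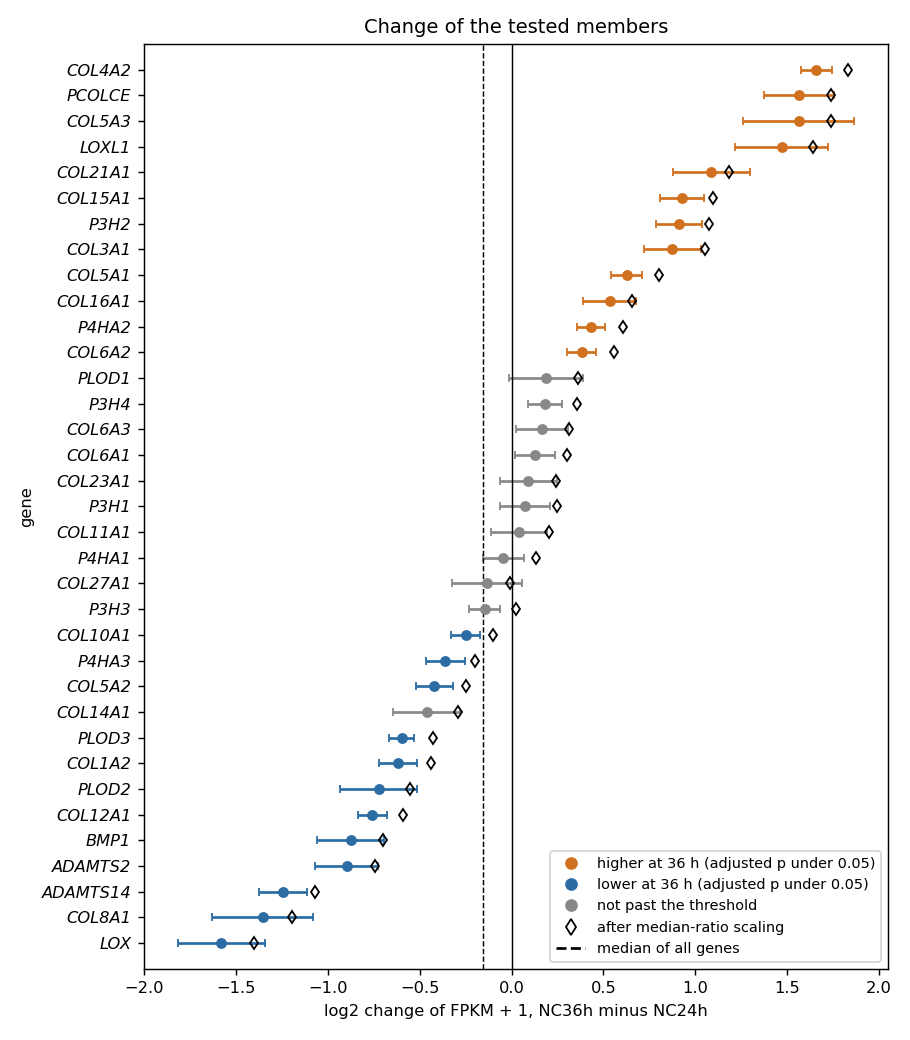
Change of the 35 tested members, as log2(FPKM + 1) of NC36h minus NC24h on the horizontal axis, with 1 row per gene. Filled points are the limma estimates with their standard errors (orange called higher, blue called lower, grey not called), open diamonds the changes after median-ratio scaling, and the dashed line the median of all genes (-0.157). COL4A2, PCOLCE, COL5A3 and LOXL1 lie at the top with changes from 1.47 to 1.66, and LOX, COL8A1 and ADAMTS14 at the bottom with changes from -1.58 to -1.24.

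Among the fibrillar chains, which form the banded fibrils, 3 of 7 tested rose and 2 fell, beside 16.5% and 34.4% of all genes. COL1A2, the second chain of type I collagen, was the highest member of all. Its FPKM in replicates 4, 5 and 6, the order kept throughout, was 632, 674 and 773 at 24 h and 495, 428 and 429 at 36 h. Each later library lay below each earlier library, and the level fell from 693 ± 72.0 to 450.5 ± 38.2 (SD, n = 3 each), a log2 change of -0.62 (SE, standard error, 0.10, adjusted p = 0.00365 by limma). COL3A1, the chain of type III collagen, moved the other way. It had 272, 251 and 201 at 24 h and 527, 417 and 386 at 36 h, again without overlap, and rose by 0.87 on the log2 scale (SE 0.15, adjusted p = 0.00446 by limma). COL3A1 therefore stood well below COL1A2 in each library at 24 h and beside it at 36 h.

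Type V collagen, which sits inside type I fibrils and limits their width, showed opposite changes of its chains. COL5A1 had 136, 136 and 139 at 24 h and 187, 222 and 229 at 36 h. It rose by 0.63 (SE 0.09, adjusted p = 0.00212 by limma), from NC24h libraries that lay close together. COL5A3, the least widespread chain of the type, had 44.8, 38.85 and 18.6 at 24 h and 106, 92.9 and 90.5 at 36 h. It rose 2.83-fold in mean FPKM, with a log2 change of 1.56 (SE 0.30, adjusted p = 0.00612 by limma), and of 1.19 without NC24h replicate 6, the lowest library. COL5A2 had 61.4, 65.8 and 77.7 at 24 h and 53.9, 47.4 and 50.4 at 36 h. It fell by 0.42 on the log2 scale (SE 0.10, adjusted p = 0.0129 by limma). The call of COL5A2 did not hold after median-ratio scaling (-0.25, adjusted p = 0.0504) or when NC36h replicate 5 was left out (0.0541), and its adjusted p ranged from 0.0106 to 0.0541 over the alternatives.

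COL3A1 and COL5A2 are neighbours on chromosome 15 of Sscrofa11.1, from 93556914 to 93595678 and from 93611856 to 93981131 in RefSeq. The gap between them is 16177 bases, with 0 other RefSeq genes in it. Of this pair of adjacent genes COL3A1 rose and COL5A2 fell. COL1A2 lies on chromosome 9 from 74174484 to 74210407, COL5A1 on chromosome 1 from 273934219 to 274083264 and COL5A3 on chromosome 2 from 68828197 to 68869914.

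The other fibrillar chains were low. COL11A1, a minor fibril chain of cartilage, had 8.404, 8.815 and 12.1 at 24 h and 9.19, 9.30 and 11.6 at 36 h, so the groups overlapped (log2 change 0.04, limma adjusted p = 0.834). COL27A1 lay between 1.99 and 3.67 and did not differ beyond the spread of the libraries (log2 change -0.14, limma adjusted p = 0.578). COL2A1, the main cartilage collagen, was near 0, with 4 fragments in the NC24h libraries and 3 in the NC36h libraries, and COL11A2 was at or under 0.0345 in each library.

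**Figure D2:**
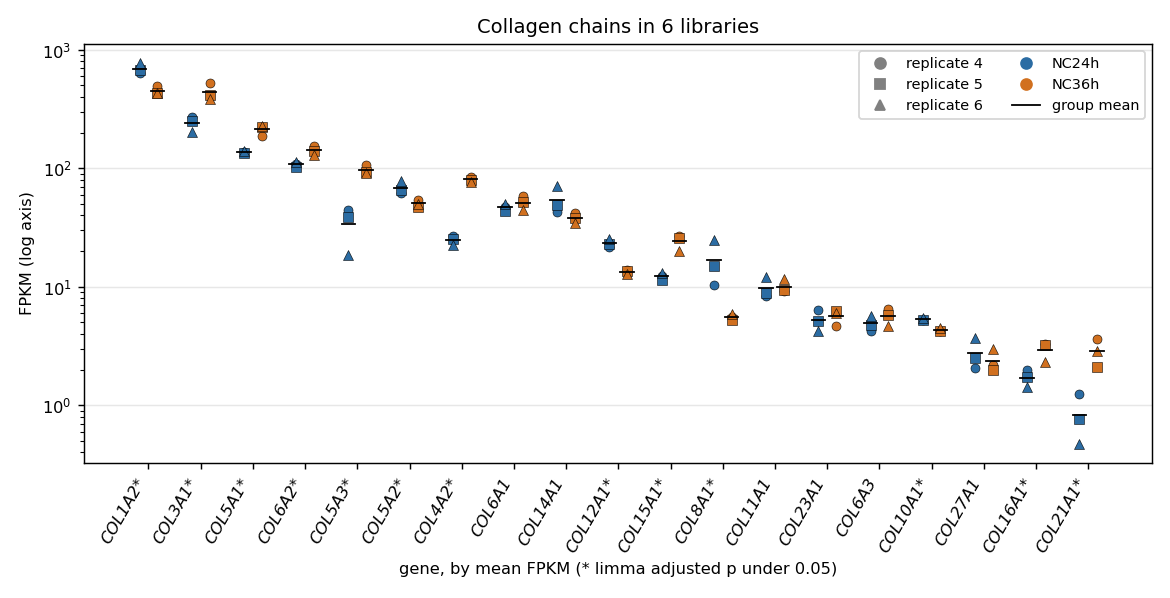
FPKM of the 19 tested collagen chains on a log axis, ordered by mean level. Each symbol is 1 library, the shape gives the replicate number, blue is NC24h and orange NC36h, and the black bars are the group means (n = 3 each). COL1A2 leads at 24 h, COL3A1 reaches its level at 36 h, and COL4A2 and COL5A3 show the widest gaps between groups among the chains above 20 FPKM at 36 h.

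The basement membrane chains held the largest rise of any member on the log2(FPKM + 1) scale. COL4A2, which pairs with COL4A1 in the type IV network, had 26.9, 25.4 and 22.3 at 24 h and 84.2, 80.3 and 76.9 at 36 h. The libraries of a group were close to each other and far from the other group. Its mean FPKM rose 3.24-fold, from 24.8 ± 2.33 to 80.5 ± 3.62 (SD, n = 3 each), with a log2 change of 1.66 (SE 0.08, adjusted p = 0.000586 by limma). The gene lies on chromosome 11 from 76996885 to 77161617, where it overlaps the COL4A1 locus, and how the authors counted fragments shared between genes is not given in the sources used here. COL15A1, a proteoglycan collagen that bridges the basement membrane to the matrix outside, had 12.3, 11.35 and 12.96 at 24 h and 26.9, 25.8 and 20.1 at 36 h. It rose 1.99-fold (log2 change 0.93, SE 0.12, adjusted p = 0.00174 by limma).

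The remaining type IV chains were under the FPKM minimum. COL4A5 had 0.371, 0.574 and 0.809 at 24 h and 0.377, 0.179 and 0.131 at 36 h, from 37 and 18 fragments per group. COL4A6 had between 0.08475 and 0.174 at 24 h and between 0.0306 and 0.0530 at 36 h, from 40 and 16 fragments. COL4A3 and COL4A4, the pair known from kidney basement membrane, were at or below 0.0248 in each library. None of these was tested.

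Of the type VI chains, which assemble into beaded filaments around muscle fibres, 1 of 3 tested rose. Over all genes tested, 50.9% were called and 16.5% were called higher. COL6A2 had 108, 103 and 113 at 24 h and 154, 139.6 and 130.1 at 36 h, a log2 change of 0.38 (SE 0.08, adjusted p = 0.00807 by limma) with no overlap. COL6A1 had 46.7, 43.9 and 49.4 at 24 h and 58.1, 51.9 and 44.0 at 36 h, and its change of 0.13 (limma adjusted p = 0.352) was within the spread. After median-ratio scaling COL6A1 passed the threshold (log2 change 0.30, adjusted p = 0.0492, range over its alternatives 0.0492 to 0.788). COL6A3, the long chain of the type, had between 4.25 and 5.70 at 24 h and between 4.63 and 6.52 at 36 h. Its change was 0.16 (limma adjusted p = 0.363), and it passed only with quantile normalization (log2 change 0.36, adjusted p = 0.0493, range over its alternatives 0.0493 to 0.732). COL6A5 was at or under 0.0247 throughout.

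The lengths behind the FPKM values bear on a comparison of levels between chains. They were 5090 bases for COL1A2, 9817 for COL6A3 and 3109 for COL6A2, but 1461 for COL6A1 and 914 for COL15A1. COL6A3 stood at 0.105 ± 0.0125 of the FPKM of COL6A1 at 24 h and at 0.109 ± 0.00360 at 36 h (SD, n = 3 each), a difference of 0.07 on the log2 scale (exact permutation test, two-sided, p = 0.8), which turned to -0.03 without NC24h replicate 4.

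The FACIT chains, which decorate the surface of fibrils, divided. COL12A1 had 21.6, 22.9 and 25.3 at 24 h and 13.7, 13.5 and 12.7 at 36 h. It fell by 0.76 on the log2 scale (SE 0.08, adjusted p = 0.00105 by limma). COL14A1, its close relative, had 42.7, 49.2 and 70.5 at 24 h and 42.2, 38.0 and 34.6 at 36 h. NC24h replicate 6 was the high library, and the change of -0.46 did not pass (limma adjusted p = 0.0703). It passed without NC24h replicate 4 (log2 change -0.61, adjusted p = 0.0256, range over its alternatives 0.0256 to 0.186). Without NC24h replicate 6 the change was -0.26 (adjusted p = 0.0751).

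In the opposite direction, COL21A1 had 1.24, 0.7685 and 0.473 at 24 h and 3.63, 2.11 and 2.895 at 36 h, from 69 and 290 fragments per group. COL21A1 had a mean of 0.828 at 24 h, under the FPKM minimum, and passed the filter only through the 36 h group. It rose 3.48-fold in mean FPKM, with a log2 change of 1.09 (SE 0.21, adjusted p = 0.00622 by limma), which was 1.74 with a pseudocount of 0.1, 1.86 with a pseudocount of 0.01 and 1.83 with voom on the recovered fragments. COL16A1 had 1.97, 1.72 and 1.42 at 24 h and 3.27, 3.19 and 2.31 at 36 h, and rose by 0.53 (SE 0.15, adjusted p = 0.0211 by limma). The call of COL16A1 was lost without NC24h replicate 5 (adjusted p = 0.0576), NC36h replicate 4 (0.0723) and NC36h replicate 5 (0.0815), with a range from 0.0118 to 0.0815. COL9A1 and COL22A1 were at or under 0.0641 in each library.

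Both tested network chains fell, where 34.4% of all genes were called lower. COL8A1, a short chain of vessel walls, had 10.3, 15.01 and 24.8 at 24 h and 5.565, 5.21 and 5.845 at 36 h. The NC36h libraries lay close together while the NC24h libraries spread, and the mean FPKM was 3.01-fold lower at 36 h (log2 change -1.35, SE 0.27, adjusted p = 0.0072 by limma, and -1.04 without NC24h replicate 6). COL10A1, known from hypertrophic cartilage, had 5.29, 5.29 and 5.40 at 24 h and 4.25, 4.19 and 4.52 at 36 h, a log2 change of -0.25 (SE 0.08, adjusted p = 0.0331 by limma). This call was the least stable of the 24. It was lost with median-ratio scaling (-0.10, adjusted p = 0.297), with quantile normalization (-0.05, adjusted p = 0.658), without a filter on low values (adjusted p = 0.0674) and in each fit without a library other than NC24h replicate 6 (adjusted p from 0.0525 to 0.118), and over all alternatives the adjusted p lay between 0.0207 and 0.658. COL10A1 lies within the NT5DC1 locus on chromosome 1, so fragments of either gene may have been assigned to the other.

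The transmembrane collagens were low and none was called. COL23A1, the highest of them, had 6.40, 5.16 and 4.27 at 24 h and 4.69, 6.25 and 6.05 at 36 h (log2 change 0.09, limma adjusted p = 0.645). COL13A1, a collagen of the neuromuscular junction, had between 0.309 and 0.543 at 24 h and between 0.5205 and 0.861 at 36 h, and was not tested. COL17A1 was between 0.215 and 0.788, also not tested. COL28A1, a chain near peripheral nerves, was at or under 0.138. Of the 15 members that were not tested, 9 were under 0.2 FPKM in each library, and the highest single value among the 15 was 1.82 (PCOLCE2).

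Inside the cell, the lysyl hydroxylases differed from each other. PLOD3, which also attaches sugars to the hydroxylysines, had 37.2, 38.6 and 42.6 at 24 h and 25.7, 25.6 and 25.8 at 36 h. It fell by 0.60 on the log2 scale (SE 0.07, adjusted p = 0.0013 by limma). PLOD2, the enzyme of the telopeptide lysines, had 31.3, 35.9 and 57.2 at 24 h and 23.2, 22.9 and 25.6 at 36 h, a log2 change of -0.72 (SE 0.21, adjusted p = 0.0257 by limma). PLOD2 stayed lower at 36 h in each setting, by 0.47 without NC24h replicate 6 (adjusted p = 0.00516), but its call was lost after median-ratio scaling (-0.55, adjusted p = 0.0509) and without NC36h replicate 4 (0.0735), 5 (0.0801) or 6 (0.0529), with a range from 0.00516 to 0.0801. PLOD1, which acts on lysines of the helix, had 49.97, 59.8 and 90.7 at 24 h and 70.2, 74.7 and 76.8 at 36 h. NC24h replicate 6 alone lay above the NC36h libraries, and the change was 0.19 (limma adjusted p = 0.463) with it and 0.43 (adjusted p = 0.00874, range over its alternatives 0.00874 to 0.988) without it.

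Of the catalytic chains of prolyl 4-hydroxylase, P4HA1 was the highest and was level. It had 155, 168 and 193 at 24 h and 151, 163 and 186 at 36 h (log2 change -0.05, limma adjusted p = 0.751), and its sign turned with median-ratio scaling. P4HA2 had 65.5, 71.8 and 78.1 at 24 h and 96.2, 96.9 and 98.0 at 36 h. It rose by 0.43 (SE 0.07, adjusted p = 0.00421 by limma), with NC36h libraries nearly equal. P4HA3 had 16.9, 16.18 and 12.9 at 24 h and 11.9, 11.4 and 11.6 at 36 h, a log2 change of -0.36 (SE 0.11, adjusted p = 0.0273 by limma). The call of P4HA3 was lost with median-ratio scaling (-0.20, adjusted p = 0.221), quantile normalization (-0.21, adjusted p = 0.201) and in each fit without a library other than NC24h replicate 6 (adjusted p from 0.0634 to 0.0898), with a range from 0.00194 to 0.221.

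Among the prolyl 3-hydroxylase family, P3H2, the form that acts on type IV collagen, was called. It had 10.1, 11.5 and 14.5 at 24 h and 22.01, 23.99 and 23.75 at 36 h. It rose 1.93-fold (log2 change 0.91, SE 0.13, adjusted p = 0.00208 by limma), the largest change among the hydroxylases. P3H1, the form that acts on type I collagen, had between 53.4 and 72.2 at 24 h and between 63.1 and 77.5 at 36 h (log2 change 0.07, limma adjusted p = 0.674). P3H3 and P3H4 changed by -0.15 and 0.18 and did not pass (limma adjusted p = 0.188 and 0.14). P3H4 passed after median-ratio scaling (0.36, adjusted p = 0.0182, range over its alternatives 0.0182 to 0.348).

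**Figure D3:**
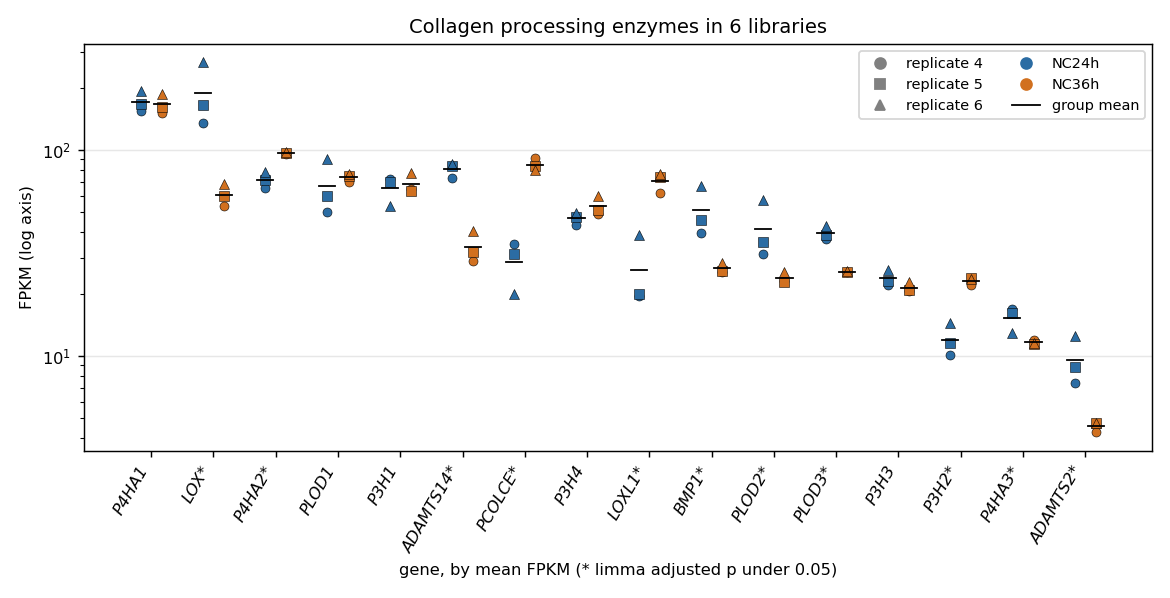
FPKM of the 16 tested processing enzymes on a log axis, ordered by mean level. Each symbol is 1 library, the shape gives the replicate number, blue is NC24h and orange NC36h, and the black bars are the group means (n = 3 each). LOX and LOXL1 cross between the groups. NC24h replicate 6 (blue triangles) is the highest library for LOX, P4HA1, PLOD1, PLOD2, PLOD3, P3H3, BMP1, ADAMTS2 and ADAMTS14.

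The proteases that remove the propeptides fell, and an enhancer of them rose, beside 34.4% of all genes called lower and 16.5% higher. BMP1, the C-proteinase that cuts types I to III and activates LOX, had 39.5, 46.0 and 67.2 at 24 h and 25.7, 26.0 and 28.2 at 36 h. It fell by 0.88 on the log2 scale (SE 0.18, adjusted p = 0.00798 by limma). ADAMTS2, the main N-proteinase of type I collagen, had 7.42, 8.84 and 12.5 at 24 h and 4.27, 4.705 and 4.75 at 36 h, a log2 change of -0.90 (SE 0.17, adjusted p = 0.00593 by limma). ADAMTS14, a relative of ADAMTS2, stood higher than it in each library.

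ADAMTS14 had 73.15, 84.0 and 85.3 at 24 h and 29.0, 32.0 and 40.3 at 36 h. Its mean FPKM was 2.39-fold lower at 36 h, with a log2 change of -1.24 (SE 0.13, adjusted p = 0.00105 by limma), and -1.204 without NC24h replicate 6. PCOLCE, which binds the C-propeptide and speeds up its removal by BMP1, had 34.9, 31.3 and 20.1 at 24 h and 91.2, 83.7 and 80.1 at 36 h. The groups were far apart, and PCOLCE rose 2.96-fold (log2 change 1.57, SE 0.19, adjusted p = 0.00157 by limma, and 1.34 without NC24h replicate 6). PCOLCE overlaps FBXO24 on chromosome 3. PCOLCE2, its relative, was under the minimum, with 1.215, 1.204 and 1.82 at 24 h and 0.454, 0.300 and 0.251 at 36 h, from 171 and 50 fragments. In the fit with no filter PCOLCE2 had a log2 change of -0.85 (limma adjusted p = 0.00509), the 1 untested member that passed there.

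The cross-linking enzymes changed places. LOX, the lysyl oxidase that starts the bonds between collagen and elastin molecules, had 136, 166 and 266 at 24 h and 53.3, 59.98 and 68.1 at 36 h. It fell from 189 ± 68.2 to 60.5 ± 7.41 (SD, n = 3 each), 3.13-fold lower at 36 h, with a log2 change of -1.58 (SE 0.24, adjusted p = 0.00273 by limma) and of -1.31 without NC24h replicate 6. LOXL1, the relative best known for elastin, had 19.5, 20.1 and 38.55 at 24 h and 61.9, 73.6 and 76.8 at 36 h. NC24h replicate 6 was the highest of its group for both genes. LOXL1 rose 2.71-fold (log2 change 1.47, SE 0.25, adjusted p = 0.00414 by limma), and by 1.78 without NC24h replicate 6.

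LOX lies on chromosome 2 from 125595115 to 125607026, within the RefSeq locus LOC100525452, and LOXL1 on chromosome 7 from 59481410 to 59505161, where a long non-coding RNA locus overlaps it. The sources used here do not say whether the counting used strand. LOXL3 had 0.625, 0.657 and 1.15 at 24 h and 0.186, 0.520 and 0.384 at 36 h, and LOXL4 had between 0.630 and 1.18 at 24 h and between 0.592 and 1.04 at 36 h. Neither was tested. In all, 22 of the 49 members with a RefSeq locus of the same symbol overlap another locus. COL6A2 is among the 49 but lies on no assigned chromosome, so its overlap was not checked.

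The ratio of partners within a library does not depend on the scaling of that library. Of the pairs of chains fixed for comparison, 3 could be formed, and with 3 libraries against 3 the smallest p that a two-sided exact permutation test can give is 0.1. The FPKM ratio of COL5A1 to COL5A2 was 2.22, 2.06 and 1.78 at 24 h and 3.47, 4.68 and 4.55 at 36 h, a difference of 1.06 on the log2 scale (exact permutation p = 0.1, adjusted over the 3 ratios 0.15). The ratio of COL6A1 to COL6A2 was 0.433, 0.427 and 0.436 at 24 h and 0.377, 0.372 and 0.338 at 36 h, a difference of -0.26 (exact permutation p = 0.1, adjusted 0.15). In both pairs the groups did not overlap.

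Further ratios were formed after the values were seen and are given without a test. COL3A1 stood at 0.430, 0.372 and 0.260 of COL1A2 at 24 h and at 1.07, 0.974 and 0.899 at 36 h. LOXL1 stood at 0.144, 0.121 and 0.145 of LOX at 24 h and at 1.16, 1.23 and 1.13 at 36 h. In NC24h replicate 6 both genes were high, and their ratio there was like that of the other NC24h libraries. PCOLCE stood at 0.882, 0.681 and 0.299 of BMP1 at 24 h and at 3.55, 3.22 and 2.84 at 36 h, with NC24h replicate 6 lowest.

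**Figure D4:**
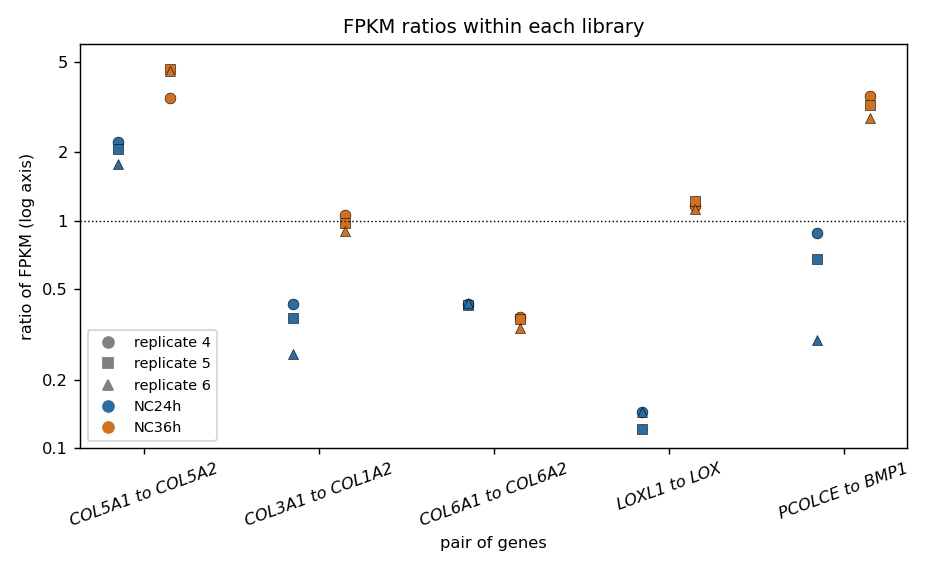
Ratio of the FPKM of 2 genes within each library on a log axis, for 5 pairs. Each symbol is 1 library, the shape gives the replicate number, blue is NC24h and orange NC36h, and the dotted line marks a ratio of 1. LOXL1 to LOX goes from at most 0.145 to at least 1.13, while COL6A1 to COL6A2 moves little, from at least 0.427 to at most 0.377.

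The summed FPKM of the 31 chains was 1446, 1466 and 1561 in the NC24h libraries and 1789, 1595 and 1545 in the NC36h libraries, so the groups overlapped. These 31 chains made up between 0.248% and 0.267% of all FPKM at 24 h and between 0.261% and 0.304% at 36 h. Both the sum and the share leave out the chains not analysed here, COL1A1 and COL4A1 among them. COL1A2 and COL3A1 together gave 904, 924 and 973 at 24 h and 1022, 845 and 815 at 36 h.

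Other genes of collagen biosynthesis and sensing, from a fixed list of 15, were in the table for 10 and tested for 7, of which 1 was called higher (14.3%) and 3 lower (42.9%), beside 16.5% and 34.4% of all genes. FKBP10, a chaperone of procollagen, had 142, 146 and 160.2 at 24 h and 92.0, 91.8 and 103 at 36 h, and fell by 0.64 (SE 0.08, adjusted p = 0.00148 by limma). The collagen receptor kinases both fell. DDR1 had 185, 209.5 and 222 at 24 h and 121, 125 and 137 at 36 h (log2 change -0.68, limma adjusted p = 0.00172). DDR2 had 16.6, 16.8 and 19.6 at 24 h and 13.2, 10.1 and 11.4 at 36 h (log2 change -0.57, limma adjusted p = 0.00627).

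SPARC, a secreted protein that binds collagen, was the highest of the list, with 714, 774 and 622 at 24 h and 917, 886 and 822 at 36 h. It rose by 0.32 (SE 0.10, adjusted p = 0.0342 by limma), and by 0.50 after median-ratio scaling. Its call was lost without a filter on low values (adjusted p = 0.069) and when leaving out NC24h replicate 4 (0.0608) or NC36h replicate 4 (0.0969), 5 (0.105) or 6 (0.05), with a range from 0.0124 to 0.105. The length behind its FPKM was 465 bases. MRC2, the receptor that takes up collagen, changed by 0.31 and did not pass (limma adjusted p = 0.0611). It passed after median-ratio scaling (0.48, adjusted p = 0.00913), with quantile normalization (0.0226), with voom (0.0496) and when NC24h replicate 6 was left out (0.00619), within a range from 0.00619 to 0.165. MIA3 and SEC24D, which serve the export of procollagen, changed by -0.12 and -0.28 (limma adjusted p = 0.266 and 0.125).

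TLL1 and TLL2, the proteases most like BMP1, were under the minimum. TLL1 had 0.788, 0.728 and 1.66 at 24 h and 0.135, 0.0961 and 0.0778 at 36 h, from 75 and 9 fragments. TLL2 had 0.198, 0.250 and 0.136 at 24 h and 1.63, 1.05 and 0.475 at 36 h, from 26 and 176 fragments. In the fit with no filter TLL1 was lower and TLL2 higher at 36 h (limma adjusted p = 0.0110 and 0.0338). COLGALT2, a collagen sugar transferase, had between 0.737 and 1.52 at 24 h and between 0.415 and 0.714 at 36 h.

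Collagens are also made by fibroblasts, so markers of other cells are given beside these results. The summed FPKM of the 7 fibroblast markers in the table was between 34.3 and 44.7 at 24 h and between 15.8 and 18.1 at 36 h, with 0 of the 4 tested markers called higher and 2 called lower, beside 16.5% and 34.4% of all genes. DCN fell from 18.8 ± 0.256 to 6.12 ± 0.923 and LUM from 5.51 ± 1.05 to 1.83 ± 0.261 (SD, n = 3 each), with limma adjusted p of 0.00064 and 0.00149. PDGFRA was at or under 0.680 and FBLN1 at or under 0.103. PI16, a marker of adventitial fibroblasts that was under the minimum in its mean level, went the other way. It had 0.157, 0.203 and 0.0404 at 24 h and 1.54, 1.03 and 0.702 at 36 h, from 10 and 101 fragments, and in the fit with no filter its log2 change was 0.87 (limma adjusted p = 0.00813). In that fit PDGFRA had a log2 change of -0.45 (limma adjusted p = 0.0159). TWIST2 and FAP were not called in the main fit (log2 change -0.64 and -0.20, limma adjusted p = 0.0708 and 0.164). TWIST2 was called lower without NC24h replicate 4 (adjusted p = 0.0354) and without NC24h replicate 6 (0.0411). The sum of the 4 tendon and cartilage markers was between 9.87 and 17.2 at 24 h and between 4.64 and 7.46 at 36 h, where TNMD and ACAN were at 0 in each library, MKX fell (log2 change -1.17, limma adjusted p = 0.00489) and SOX9 was not called.

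Of 3 pericyte markers, PDGFRB and ABCC9 rose and CSPG4 fell, with a sum between 11.6 and 12.8 at 24 h and between 18.8 and 28.8 at 36 h. Endothelial KDR and immune PTPRC were at 0 in each library. The sums were at most 1.67 for the 3 endothelial markers, at most 2.44 for the 3 immune markers and at most 0.0773 for PLIN1, the adipocyte marker in the table. The tested genes of these lists, PECAM1 and CD68, had limma adjusted p of 0.846 and 0.0523 (0.0471 for CD68 without trend). The part of any of these cells in the changes of the collagens was not tested.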

How the data were processed

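PSC RNA was sequenced as paired-end Illumina reads. Per the study's methods, the authors used HISAT2 for mapping to Sscrofa11.1, StringTie for assembly and HTSeq for counting, and the deposited FPKM values come as 1 column per library with none pooled. The submitters' processing notes name TopHat2, Cufflinks and HTSeq, and an extraction note names the endometrium, whereas the tissue label is skeletal muscle. Strandedness and the handling of shared reads are not given in the sources used here.

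The members and gene lists were chosen with earlier results of these data known. Genes whose mean FPKM reached 1 were fitted as log2(FPKM + 1) with limma 3.58.1 in R 4.3.3 (eBayes with trend, two-sided, Benjamini-Hochberg over 14060 genes, threshold 0.05), after the code was tested on simulated data. Symbols came from an identifier table that paired 11804 of 25322 Ensembl identifiers, and coordinates from RefSeq for Sscrofa11.1, matched by symbol. FPKM steps gave whole fragments (tolerance 0.01) for each of the 19543 genes that 3 or more libraries held above 0, and a whole length (tolerance 0.05) for 99.1% of them. Named with values are the members past the threshold, the highest of each class and those whose mean FPKM reached 100, and the accessory genes past the threshold with the highest of them. TLL1, TLL2, PCOLCE2 and other genes outside this rule were named after their values were seen. Within a group, Pearson's r of log2(FPKM + 1) between libraries was between 0.972 and 0.994 over the genes tested. Alternatives were other pseudocounts, filters and scalings, eBayes without trend, the replicate block, leaving out each library, and voom on the recovered fragments. No sequences are shown.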

Additional observations from a re-analysis of the deposited data

How the results depend on the processing

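Of the 24 called members, 19 kept their call in each alternative run, and COL5A2, COL10A1, COL16A1, P4HA3 and PLOD2 lost it in at least 1. The number called ranged from 19 to 25 over the fits that each left out a library (11 to 13 higher, 8 to 12 lower) and was 21 with a mean FPKM of at least 5, 22 with median-ratio scaling, 23 with quantile normalization, 24 with voom and 25 at an unadjusted p, which was added after the data were seen. The 1 accessory gene called higher became 2 with median-ratio scaling, 2 with quantile normalization, 2 with voom, and 0 to 2 without a library. The log2 difference of the ratio of COL6A3 to COL6A1 ranged from -0.0337 to 0.14 without a library, that of COL5A1 to COL5A2 from 0.97 to 1.195 and that of COL6A1 to COL6A2 from -0.28 to -0.21.

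Only genes past no threshold turned their sign. With median-ratio scaling these were P4HA1 (0.13), P3H3 (0.025) and MIA3 (0.0456), and with quantile normalization COL27A1 (0.0221). Without a library the log2 change ranged from -0.0574 to 0.19 for COL11A1, -0.27 to 0.036 for COL27A1, -0.028 to 0.22 for COL23A1, -0.13 to 0.0406 for P4HA1 and -0.0622 to 0.15 for P3H1. The cause was not tested. Same-numbered libraries deviated from their group means with correlations across genes of 0.15, -0.02 and 0.18 for numbers 4, 5 and 6. NC24h replicates 4 and 6 correlated best with the NC36h library of their own number, and NC24h replicate 5 with NC36h replicate 4. Such weak correlations cannot decide whether the libraries were paired, and the libraries were treated as unpaired. With the replicate block 23 members were called (12 higher, 11 lower, without COL10A1), 4 accessory genes were called (1 higher, 3 lower), and the ratio differences stayed at 1.06, -0.26 and 0.07. Among the marker genes, the block added calls of lower for MYF5 (adjusted p = 0.00678), SOX9 (0.0277) and TWIST2 (0.0316). With 3 libraries per group, leaving 1 out leaves an arm of 2, and low genes such as COL4A5 (37 and 18 fragments) cannot show small changes.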
